A study of Mus musculus with 12 samples.

Results

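The cytochrome P450 genes were followed in the livers and subcutaneous fat of mice that overexpressed human HKDC1 (hexokinase domain containing 1) in hepatocytes. Members were the protein-coding genes of the deposited table whose symbols had the form Cyp, family number, subfamily letter and gene number. This rule matched 98 genes, of which 6 were left out: Cyp7a1, Cyp7b1, Cyp8b1 and Cyp27a1 of bile acid synthesis and the fatty acid hydroxylases Cyp4a10 and Cyp4a14. The other 92 of the 54532 genes in the table were members. Family Cyp2 had 48 of them, Cyp4 had 18, Cyp3 had 9, and Cyp1, Cyp11 and Cyp26 had 3 each. Families Cyp17, Cyp19, Cyp20, Cyp21, Cyp24, Cyp27, Cyp39 and Cyp46 had 1 each.

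Each mouse received 1 injection of adeno-associated virus 8 at 10 weeks of age and then ate a low-fat diet for 16 weeks until its tissues were taken. The virus of the hHKDC1 OE group expressed the full-length human gene from a promoter of thyroxine-binding globulin, on in hepatocytes, and that of the null group carried the promoter alone, so the transgene was aimed at the liver and not at fat. Total RNA was sequenced from 3 libraries of each vector in each tissue, 12 in all. The titles and the treatment label put 3 libraries of each tissue in the overexpression group, whereas the description label called replicates 2 and 3 of those knockouts. They were kept with their titles, and the labels did not say more of how replicates were taken, so p-values measured only the spread between these samples. The human transgene was not analysed here, and mouse Hkdc1 had 0 to 8 counts per library.

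P450 enzymes are heme proteins of the endoplasmic reticulum or mitochondria that insert an oxygen atom into lipophilic substrates, with electrons from P450 oxidoreductase (Por) or, in mitochondria, from ferredoxin. Families Cyp1, Cyp2 and Cyp3 oxidise drugs, toxins and arachidonic acid, family Cyp4 hydroxylates the ends of fatty acids and leukotrienes, and the higher-numbered families build or clear steroids, sterols, vitamin D and retinoic acid. In liver the drug-metabolising members are made by hepatocytes, many of them around the central vein. Their genes are driven by hepatocyte factors such as Hnf4a and by the receptors Ahr, Nr1i2 (PXR), Nr1i3 (CAR) and Ppara, and some differ between the sexes through growth hormone and Stat5b.

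The libraries held 15496019 to 19954971 counts. The members took 2.01% to 2.54% of the counts of a liver library and 0.167% to 0.353% of those of a fat library. The tissue labels fitted the markers, since the summed FPKM of 8 adipocyte markers ran from 7219.97 to 10500.3 in fat and from 7.23 to 22.4 in liver. FPKM, the scale of every level given here, is read fragments scaled by gene length and a DESeq2 size factor per library. Null liver replicate 1 had 17117206 counts and a factor of 0.661, and null fat replicate 1 had 17738258 counts and 1.27. Factors were 0.649 to 0.821 in liver and 1.27 to 1.74 in fat. FPKM thus put fat lower against liver than scaling by total counts would. Y-linked Ddx3y had 731 to 2067 counts in every library and Xist 0 to 4. Hepatocyte markers were present in fat, at a summed FPKM of 1138, 1213 and 3802 in null libraries and 1019, 405 and 571 in hHKDC1 OE libraries, with null replicate 3 apart from the rest. Skeletal muscle markers were there too, at 6309.7, 7156 and 187 in null and 4655, 348 and 801 in hHKDC1 OE libraries, where null replicate 3 was the lowest. The summed B cell markers of the same libraries were 1.12, 0.92 and 1.58 (null) and 319, 19.4 and 212 (hHKDC1 OE).

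The members lay on 14 chromosomes, and 70 of them sat in 8 clusters of neighbouring paralogs, where a cluster was 3 or more members with gaps under 1000000 bases (positions as in the deposited table, mouse GRCm38). The largest was the Cyp2c cluster of 14 genes at chr19:39007019-40187333, followed by 13 genes of the Cyp2a, Cyp2b, Cyp2f, Cyp2g, Cyp2s and Cyp2t subfamilies at chr7:25802475-27158668. Clusters of 8 genes each held Cyp2j (chr4:96027534-96664154), Cyp4a with Cyp4b1 and Cyp4x1 (chr4:115106323-115647723), Cyp3a (chr5:145345279-146113287), Cyp2d (chr15:82370527-82794294) and Cyp4f (chr17:32468462-32947402). Cyp1a1, Cyp1a2 and Cyp11a1 made the smallest at chr9:57676937-58027023. Neighbours in these clusters can be similar enough to share reads. Of all 100-base windows in its transcripts, Cyp3a41a shared 90.8% and Cyp3a41b 88.2% with another gene, Cyp2c40 44.1%, Cyp2c69 36.3%, Cyp4a12b 36.2%, Cyp4a12a 35.8% and Cyp2c67 23.7%, so the division of reads among these is uncertain. In 42 members no window was shared, and 14 members shared over 10% of theirs.

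The promoters are printed here for the members on which the levels and comparisons below turn: the liver genes Cyp2e1, Cyp1a2 and Cyp3a11, and Cyp1b1 and Cyp4b1, which were higher in fat. Each is the RefSeq sequence upstream of the RefSeq start of the gene in GRCm38.p6, 150 or 250 bases long and written 5′ to 3′ on the strand of the gene, with a motif in capitals where one was found. The 3 motifs searched on both strands were TATAAA (the TATA box), CAAAGTCCA (a form of the site bound by Hnf4a) and GCGTG (the core of the element bound by Ahr).
Cyp2e1 promoter: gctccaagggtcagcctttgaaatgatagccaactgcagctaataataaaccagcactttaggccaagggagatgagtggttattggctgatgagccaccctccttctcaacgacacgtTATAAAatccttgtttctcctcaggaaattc
Cyp1a2 promoter: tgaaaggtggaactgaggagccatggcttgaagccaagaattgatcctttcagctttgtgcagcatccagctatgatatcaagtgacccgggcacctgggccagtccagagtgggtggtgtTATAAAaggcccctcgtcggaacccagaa
Cyp3a11 promoter: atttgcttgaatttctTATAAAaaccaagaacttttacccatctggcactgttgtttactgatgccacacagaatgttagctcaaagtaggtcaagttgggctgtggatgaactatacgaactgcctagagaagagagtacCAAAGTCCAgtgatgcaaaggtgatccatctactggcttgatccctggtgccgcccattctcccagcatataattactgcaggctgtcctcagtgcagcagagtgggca
Cyp1b1 promoter: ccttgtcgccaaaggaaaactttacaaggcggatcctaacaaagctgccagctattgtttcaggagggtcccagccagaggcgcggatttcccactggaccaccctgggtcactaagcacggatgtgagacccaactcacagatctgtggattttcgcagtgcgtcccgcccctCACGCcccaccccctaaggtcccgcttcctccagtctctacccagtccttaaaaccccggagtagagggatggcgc
Cyp4b1 promoter: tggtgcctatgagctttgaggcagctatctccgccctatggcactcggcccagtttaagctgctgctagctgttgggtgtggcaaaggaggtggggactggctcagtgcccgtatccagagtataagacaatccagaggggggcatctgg
They lie at chr7:140763669-140763818, plus strand, chr9:57683656-57683805, minus strand, chr5:145879855-145880104, minus strand, chr17:79715062-79715311, minus strand, and chr4:115647722-115647871, minus strand. The capitals mark TATAAA 31 bases before the start of Cyp2e1 and 29 before that of Cyp1a2, TATAAA 234 and CAAAGTCCA 109 bases before that of Cyp3a11, and the reverse complement of GCGTG 76 before that of Cyp1b1. In the windows shown, Cyp4b1 held none of the 3. RefSeq windows of 250 bases before the start were found for 73 members, in 83 windows. TATAAA was in 29 of those (34.94%) and in 12.368% of 32851 promoters of all genes. CAAAGTCCA was in 10 (12.048%), all of the Cyp2c and Cyp3a subfamilies, whose members are paralogs, and in 0.384% of all promoters. GCGTG was in 15 (18.072%) and in 28.157% of all promoters. A match is a description of the letters and not a measured site.

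In liver the levels of the members ranged from not detected to the level of Cyp2e1. Of the 92, 25 had a mean of at least 100 FPKM over the 6 liver libraries, 33 at least 10 and 50 at least 1, and 12 were at 0 in all 12 libraries, among them Cyp19a1 (aromatase), Cyp24a1 (which inactivates vitamin D) and Cyp11b2 (aldosterone synthase). Cyp2e1, which oxidises ethanol, acetone and small solvents, stood alone at 6655 ± 531 FPKM in null liver (mean ± SD, n = 3), which was 43.4% of the FPKM of all members. Next came Cyp2d26 at 959.6 ± 57.7, Cyp2d9 (a male-specific steroid hydroxylase) at 889 ± 37.3, Cyp2d10 at 832 ± 115, the coumarin hydroxylase Cyp2a5 at 726 ± 84.1 and Cyp2f2 at 613 ± 118. Then followed Cyp2c70, which makes muricholic acids, at 384 ± 53, the arachidonic acid epoxygenase Cyp2c29 at 365 ± 94.9, Cyp1a2, which oxidises caffeine, at 340.2 ± 81.6, the epoxygenase Cyp2j5 at 340.1 ± 71.7 and Cyp2a12 at 317 ± 32.3. Among the 11 highest members over the 6 liver libraries, 9 of the 10 neighbouring pairs had overlapping libraries, so that below Cyp2e1 the order was not resolved from one gene to the next. Family Cyp2 held 88.5% of the members' FPKM in null liver, family Cyp4 5.07% and family Cyp3 3.76%.

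**Figure D1:**
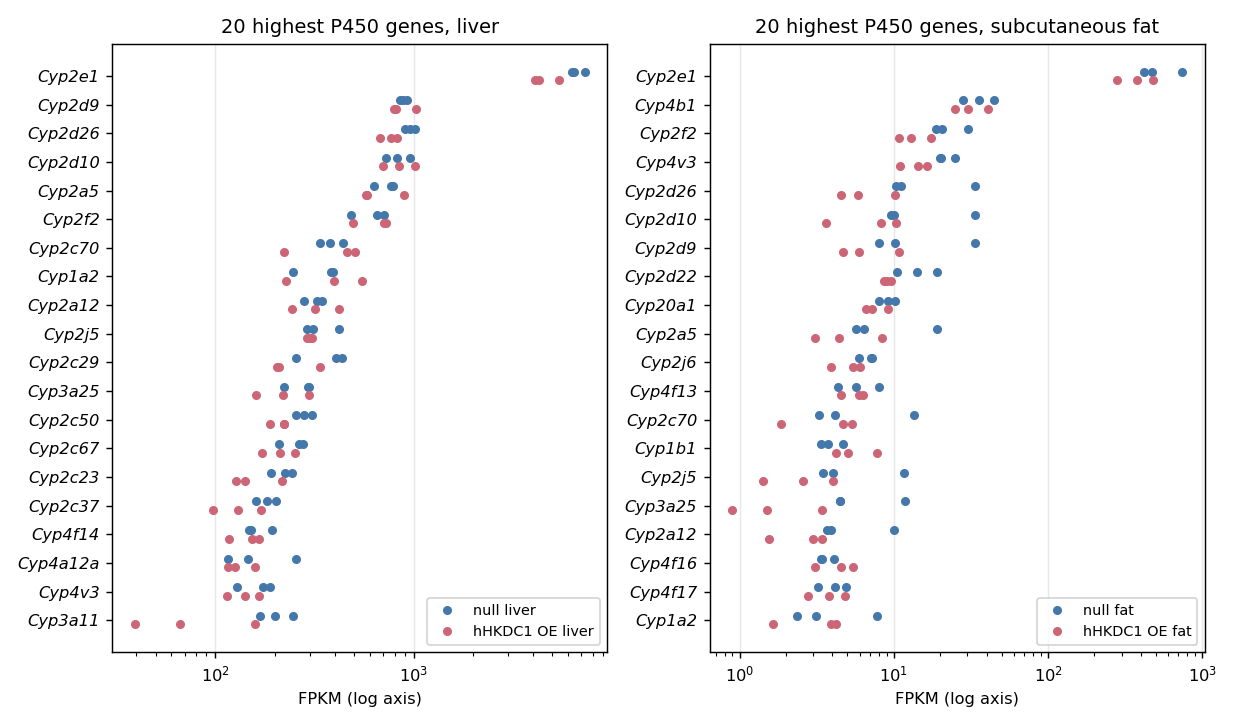
FPKM (log axis) of the 20 P450 genes with the highest mean in liver (left) and in fat (right), with 1 point per library and the 2 vectors in different colours. Cyp2e1 leads in both tissues and is the only member whose mean reached 100 FPKM in fat.

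The comparison of hHKDC1 OE with null liver addressed the P450 genes of the tissue that carried the transgene. After the filter on low counts 56 of the 92 members were tested, and the highest FPKM of an untested member in any liver library was 2.00. With edgeR's quasi-likelihood test and Benjamini-Hochberg adjustment over 13351 genes, 0 members passed an adjusted p of 0.05 in either direction, and of all genes tested 0% did (smallest adjusted p 0.0573, and 0.362 among members). DESeq2 called 2 members lower, Cyp4a12b (adjusted p = 0.00406) and Cyp2c54 (0.00826), and 0 higher, against 0.331% of all genes called lower and 0.31% higher. At an unadjusted p under 0.05, edgeR had 7 members lower and 2 higher, where 3.05% and 3.89% of all genes were. By FPKM the 3 hHKDC1 OE libraries lay wholly below the null libraries in 7 members and wholly above in 1, Cyp2u1, against 7.47% and 5.26% of all genes. Fitted log2 fold changes were negative in 37 of the 56 (48.9% of all genes) and had a median of -0.17 (0.01 over all genes), from -1.45 to 1.29. The count of 7 became 12 without replicate 2 of hHKDC1 OE, 4 without replicate 3 of hHKDC1 OE and 3 without replicate 2 of null.

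Cyp2e1 was at 7265, 6300.1 and 6399.5 FPKM in the null libraries and 5386, 4282 and 4098 in the hHKDC1 OE libraries. The 3 hHKDC1 OE values all lay under the lowest null value, and the means were 6655 ± 531 and 4589 ± 697 (SD, n = 3 each). The log2 fold change was -0.50 ± 0.19 (SE), with an adjusted p of 0.632 in edgeR. The gene was the largest single part of the members' total. The summed FPKM of all members was 16489.8, 15392 and 14122 in null liver and 14223, 11352 and 11544 in hHKDC1 OE liver, and without Cyp2e1 it was 9225, 9092 and 7722 and 8836, 7069.9 and 7447. Both sums overlapped between the vectors. Cyp2e1's share of the total was 43.4% in null and 37% in hHKDC1 OE liver.

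Of the other drug- and toxin-metabolising members, Cyp3a11, the main mouse counterpart of human CYP3A4 and a target of Nr1i2, had the largest fitted difference among the 25 members with a mean of at least 100 FPKM. It was at 168, 199 and 246 FPKM in null liver and 39.3, 158 and 66.5 in hHKDC1 OE liver, a log2 fold change of -1.18 ± 0.44 (adjusted p = 0.621, edgeR). The groups did not overlap by FPKM but did by TMM-scaled counts, and replicate 2 of hHKDC1 OE stood close to null. Without that library edgeR called Cyp3a11 lower (log2 fold change -1.93, adjusted p = 0.0112), and over all alternatives run its adjusted p went from 3.27e-06, without a filter on low counts, to 0.995. The other 3 tested Cyp3a genes were Cyp3a25 (-0.23 ± 0.23), Cyp3a59 (-0.18 ± 0.24) and Cyp3a13 (-0.03 ± 0.21), with overlapping groups. In family Cyp1, Cyp1a2 had 385, 390.00 and 246 FPKM in null and 548, 228 and 397 in hHKDC1 OE liver, a wide spread with a log2 fold change of 0.23 ± 0.30, and Cyp1a1 and Cyp1b1 stayed under 1 FPKM in every liver library. Of the 4 tested Cyp2a and Cyp2b genes, Cyp2a5 (-0.06 ± 0.21) and Cyp2a12 (0.08 ± 0.20) differed by less than their errors.

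In the Cyp2c subfamily, which makes epoxides of arachidonic acid and hydroxylates steroids and drugs, 10 of the 12 tested members had negative log2 fold changes, with a median of -0.36, and 2 did at an unadjusted p under 0.05, where 48.9% and 3.05% of all genes did. The count of 2 became 1 without replicate 1 or 2 of null or replicate 3 of hHKDC1 OE, 4 without replicate 3 of null, and 5 without replicate 2 of hHKDC1 OE or with the replicate as a block. It was 6 of 14 without a filter on low counts and 0 in a fit over 12 libraries. Cyp2c54 was at 147, 145 and 149 FPKM in the null libraries and 78.1, 101 and 80.4 in the hHKDC1 OE libraries. The null libraries were within a few FPKM of each other and every hHKDC1 OE library lay below them, with a log2 fold change of -0.73 ± 0.16 (adjusted p = 0.362, edgeR). Its neighbour Cyp2c50 had 306, 279 and 254 against 222, 222 and 188 FPKM, also without overlap (-0.38 ± 0.15, adjusted p = 0.665). Groups overlapped for the other 10, among them Cyp2c29 (-0.50 ± 0.26), Cyp2c37 (-0.42 ± 0.21), Cyp2c23 (-0.41 ± 0.21) and Cyp2c38 (-0.78 ± 0.54). Cyp2c70, one of the 2 members with a positive value, had 0.07 ± 0.28. The Cyp2d subfamily, at chr15, stood otherwise, with 5 of 7 tested members positive and a median of 0.06. Cyp2d26 had 952, 1021 and 906 FPKM in null and 827, 772 and 673 in hHKDC1 OE liver without overlap (-0.31 ± 0.16, adjusted p = 0.772), while Cyp2d9 (0.01 ± 0.17) and Cyp2d10 (0.06 ± 0.19) overlapped. That the 2 subfamilies differ was not tested.

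In family Cyp4, 9 of the 11 tested members had negative values (median -0.32). The median was -0.13 without replicate 1 of null and -0.21 without replicate 2 of hHKDC1 OE, and 7 of 11 were negative without replicate 3 of null. Cyp4a12b, a male-biased enzyme that hydroxylates arachidonic acid at its end, was at 91.7, 49.1 and 83.5 FPKM in null and 29.8, 33.4 and 42.8 in hHKDC1 OE liver. The groups did not overlap, and the log2 fold change was -1.05 ± 0.24 (adjusted p = 0.406, edgeR). Its close copy Cyp4a12a had 254, 116 and 146 against 116, 126 and 159 FPKM, with overlap (-0.32 ± 0.27), and the division of reads between the pair is uncertain. The sum of the pair, which would not hold shared reads that were left uncounted, was 346, 165 and 229 against 146, 159.7 and 202 FPKM, with overlap. Cyp4b1, a hydroxylase of medium-chain fatty acids, had 7.37, 9.54 and 7.21 against 2.51, 6.92 and 3.98 FPKM (-0.80 ± 0.34, adjusted p = 0.685), apart by FPKM and overlapping by TMM-scaled counts. Cyp4a31 had 1.93, 7.24 and 10.2 against 1.43, 2.28 and 3.98 FPKM, where null replicate 1 fell among the hHKDC1 OE values (-1.31 ± 0.56, adjusted p = 0.689). All 5 tested members of the Cyp4a, Cyp4b1 and Cyp4x1 cluster on chromosome 4 had negative values, except that Cyp4a12a was at 0.046 without replicate 1 of null.

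Cyp2u1, which hydroxylates long-chain fatty acids and lies alone at chr3:131288441-131303227, was the member on the other side. It had 7.73, 6.21 and 4.3 FPKM in null and 12, 8.14 and 9.51 in hHKDC1 OE liver, with every hHKDC1 OE value above the highest null value and a log2 fold change of 0.74 ± 0.22 (adjusted p = 0.52, edgeR). The other large positive values belonged to genes with few reads. Cyp2d12 had 10, 5 and 6 counts in null and 22, 8 and 28 in hHKDC1 OE liver (1.29 ± 0.64), and Cyp2d11 had 15, 14 and 11 against 48, 45 and 15 (1.27 ± 0.54, adjusted p = 0.689). For Cyp2b9 and the cholesterol 24-hydroxylase Cyp46a1 the value came from hHKDC1 OE replicate 2 alone: Cyp2b9 had 24, 47 and 3 counts against 3, 159 and 9 (0.96 ± 1.20), and Cyp46a1 49, 36 and 88 against 40, 239 and 57 (0.75 ± 0.60). Without that library the values were -2.20 and -0.39.

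At the negative end, Cyp26b1, which clears retinoic acid, ranged widely within both groups, at 4.9, 2.22 and 0.45 FPKM in null and 0.296, 2.15 and 0.173 in hHKDC1 OE liver (-1.45 ± 0.93). Cyp2b10, the classic target of Nr1i3, was near the floor, at 0.861, 1.09 and 0.0786 against 0, 0.825 and 0 FPKM (-1.19 ± 1.30). Its value was -7.11 without replicate 2 of hHKDC1 OE and -0.61 without replicate 3. That of Cyp26b1 was -3.40 without replicate 2 of hHKDC1 OE and -0.57 without replicate 1 of null. The related Cyp26a1 had -0.24 ± 0.51, the vitamin D 25-hydroxylase Cyp2r1 -0.04 ± 0.35, the oxysterol 7α-hydroxylase Cyp39a1 0.09 ± 0.34 and Cyp17a1, of steroid synthesis, -0.22 ± 0.30. The groups overlapped in all 4.

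**Figure D2:**
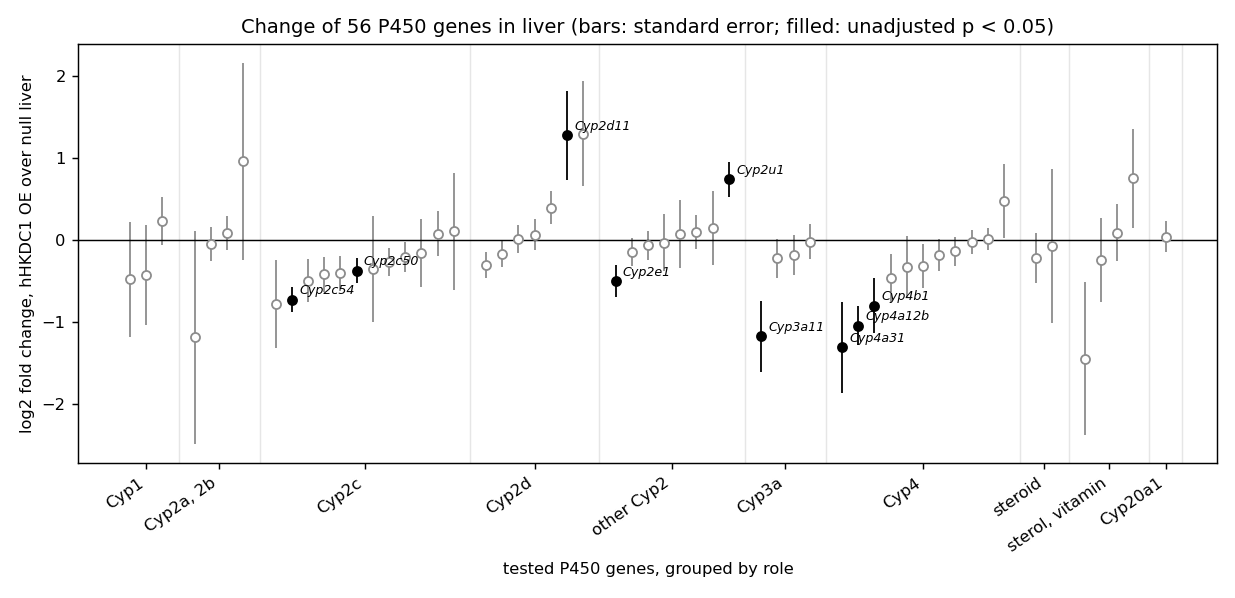
Log2 fold change of hHKDC1 OE over null liver (y axis, bars are the SE of the edgeR fit) for the 56 tested members, grouped by role along the x axis, with named black points for an unadjusted p under 0.05. Of the 56 members, 37 lie below 0 and 19 above it.

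**Figure D3:**
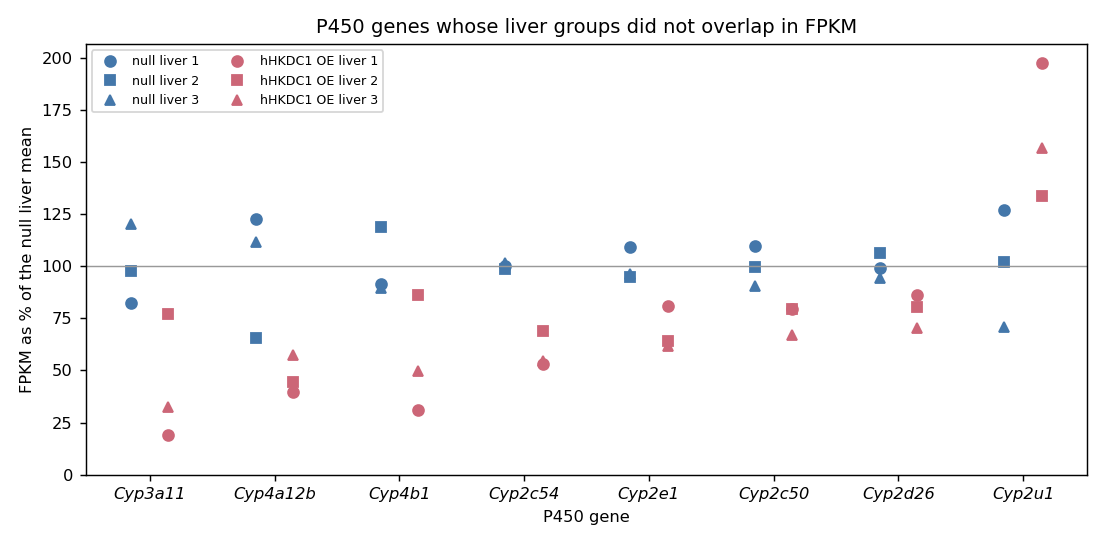
FPKM of each liver library as a percent of the null mean (y axis, from 0) for the 8 members whose groups did not overlap by FPKM, with 1 marker shape per replicate. In Cyp3a11 and Cyp4b1 replicate 2 of hHKDC1 OE lies nearest to the null libraries, and in Cyp2c54 the 3 null libraries lie closest together.

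The members of the central-vein list were then read together. Of its 9 members, 8 had negative values (median -0.42), 4 did so at an unadjusted p under 0.05 (Cyp2e1, Cyp3a11, Cyp2c50 and Cyp2c54), and Cyp1a2 was the exception, where 48.9% of all genes were negative and 3.05% lower at that p. Leaving out 1 library at a time, 7 to 9 of the 9 were negative. The count of 4 became 1 without replicate 3 of hHKDC1 OE, 2 without replicate 1 or 2 of null, 7 without replicate 2 of hHKDC1 OE and 0 in a fit over 12 libraries. Their summed FPKM was 9919, 9025 and 8561 in null and 7724, 6377 and 5870.3 in hHKDC1 OE liver, which did not overlap and which was mostly Cyp2e1. Of 10 pericentral genes that are not P450s, 7 were negative (median -0.11), with Oat (ornithine aminotransferase) at -0.86 ± 0.25 and Glul (glutamine synthetase) at -0.12 ± 0.16. By FPKM 4 of the 10 lay wholly below null and 0 above (7.47% and 5.26% of all genes). At an unadjusted p under 0.05 in edgeR 2 were lower and 0 higher, and DESeq2 called 2 lower (0.331% of all genes) and 0 higher. Of 10 periportal genes 7 were negative as well (median -0.20), 2 lay wholly below null by FPKM, and at that unadjusted p 0 were lower and 1 higher. Of the 7 male-biased members 4 were positive and 3 negative, with Cyp2u1 and Cyp4a12b at the ends, and of the 13 female-biased members 6 were tested, 2 positive (Cyp2b9 and Cyp39a1) and 4 negative (Cyp2c37, Cyp2c40, Cyp17a1 and Cyp26a1, with Cyp2c40 at -0.16 ± 0.42). The 7 untested ones include Cyp2a4, at 4, 18 and 5 counts in null and 3, 50 and 4 in hHKDC1 OE liver, where replicate 2 was again the highest. Cyp2c69 was also untested, Cyp2b13 had at most 2 counts and Cyp3a44 at most 3 in a liver library, and Cyp3a16, Cyp3a41a and Cyp3a41b were at 0 in every library. These lists were chosen with results on these data known, and no test was run on them as sets.

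The genes that P450 enzymes need were described beside them. Of 18 partners, all tested, 12 had negative values and 6 positive, 5 were lower at an unadjusted p under 0.05 (3.05% of all genes) and 0 passed the adjusted threshold. The count of 5 became 1 without replicate 3 of null, 2 without replicate 2 of null, with library size alone or in a fit over 12 libraries, and 3 without replicate 1 of hHKDC1 OE. Por, the shared electron donor, had 233, 287 and 254 FPKM in null and 163, 187 and 145 in hHKDC1 OE liver, with no overlap (-0.62 ± 0.17, adjusted p = 0.52, edgeR). Cytochrome b5, Cyb5a, had 559, 546 and 579.8 against 419, 429 and 411 FPKM, also apart (-0.39 ± 0.15). Alas1, the rate-limiting enzyme of heme synthesis, was at 126, 122 and 256 against 48.3, 86.9 and 98.7 (-1.08 ± 0.35, adjusted p = 0.587), and the later heme enzyme Cpox had -0.45 ± 0.19. The epoxide hydrolase Ephx2, which acts on the products of Cyp2c and Cyp2j enzymes, had 653, 750.4 and 697 against 437, 508 and 578 FPKM (-0.43 ± 0.17), whereas Ephx1 had 0.03 ± 0.19. The largest positive values were those of Ppox (0.41 ± 0.23), Hmox1 (0.30 ± 0.27) and Cyb5b (0.04 ± 0.21).

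Of 25 regulators 23 were tested, with 16 positive and 7 negative values. Ppara had 52.3, 48.2 and 42.1 FPKM in null and 31.4, 36.4 and 37.4 in hHKDC1 OE liver, without overlap (-0.40 ± 0.15, adjusted p = 0.618, edgeR), and the clock factor Dbp had 38.8, 36.2 and 18.2 against 50.3, 59.96 and 41.5 on the other side (0.74 ± 0.26, adjusted p = 0.606). The groups overlapped for Nr1i2 (-0.36 ± 0.19), Nr1i3 (0.07 ± 0.30), Ahr (-0.39 ± 0.19), Hnf4a (-0.09 ± 0.18), Bcl6 (0.63 ± 0.37) and Stat5b (0.36 ± 0.18). Of 18 targets of the same receptors that are not P450s, 15 were tested, 12 were negative and 5 were lower at an unadjusted p under 0.05 (48.9% and 3.05% of all genes), and DESeq2 called 3 lower (0.331%). The fatty acid thioesterase Acot1, a Ppara target, had 23.1, 36.4 and 40.4 against 3.6, 10.6 and 9.13 FPKM (-2.06 ± 0.38, adjusted p = 0.325), and the peroxisomal enzyme Ehhadh had 163, 183 and 169 against 68, 109.5 and 85.5 (-0.93 ± 0.20, adjusted p = 0.355).

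Lists of other genes were set beside these in liver, where edgeR called 0 of all genes. The summed FPKM of 17 acute phase genes was 11950.01, 11545 and 13081 in null and 48547, 13268 and 32103 in hHKDC1 OE liver, with 16 of the 17 fitted higher. At an unadjusted p under 0.05 in edgeR 12 were higher and 0 lower (3.89% and 3.05% of all genes). DESeq2 called 8 higher and 0 lower (0.31% and 0.331%). Replicate 2 of hHKDC1 OE was the one nearest to null in the sum. Of the members without overlap, that replicate was also nearest to null for Cyp3a11, Cyp4b1, Cyp2c54 and Cyp2u1, whereas replicate 1 was for Cyp2e1 and Cyp2d26, replicate 3 for Cyp4a12b, and replicates 1 and 2 were level for Cyp2c50. Of 11 macrophage and Kupffer cell markers 10 were fitted higher (sums of 106, 133 and 205 and 363, 186 and 182), and all 8 endothelial markers were fitted lower (sums of 43.9, 52.5 and 39.9 and 22.8, 40.9 and 23.1), and the sums of both lists overlapped between the vectors. Of the 12 hepatocyte markers 6 were higher and 6 lower, at sums of 96979, 94756 and 96662 and 91079, 76166 and 66458. These sums did not overlap, and every hHKDC1 OE library lay below the null libraries. Their part in the values of the members was not tested, and in bulk tissue fewer cells of a type and less RNA per cell cannot be told apart.

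In null mice the members were compared between fat and liver. With edgeR, 45 of the 55 tested members were lower in fat and 4 higher at an adjusted p under 0.05, where 30.5% and 33.8% of all genes tested were, and the median log2 fold change of fat over liver was -5.47. In fat only Cyp2e1 reached a mean of 100 FPKM over the 6 libraries, while 8 members reached 10 and 38 reached 1, and 9 of the 10 neighbouring pairs among the 11 highest overlapped. Hepatocyte markers had a log2 fold change of -5.64 at the median, and all 12 were lower.

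The ratio of null fat to null liver FPKM was therefore set beside that of 12 hepatocyte markers (such as Alb and Apoa1), which ran from 2.04% to 2.42% with a median of 2.10%. The size factors were higher in fat than in liver, so these percents are lower than scaling by total counts would give. Among 61 members with at least 60 counts over the 12 libraries and a level above 0 in null liver, 23 were over 3 times that median, and the other 38 were not. Cyp11a1, at 0 in liver and with 3 counts in all in null fat, was given no ratio. The limit of 3 was chosen after the values were seen. All 23 were also above it in hHKDC1 OE fat, where the marker median was 0.847%. They held 80.3% of the members' FPKM in null fat. Of the liver genes above, Cyp2d10 (2.12%) lay within the range of the markers. Cyp2d9 (1.95%), Cyp2d26 (1.92%), Cyp2j5 (1.88%), Cyp2a12 (1.85%), Cyp2c70 (1.81%), Cyp3a11 (1.59%), Cyp2a5 (1.44%), Cyp2c29 (1.43%) and Cyp1a2 (1.30%) lay below it, and Cyp2f2 (3.78%) lay above it but under the limit. All of these were highest in null replicate 3, as the markers were. Cyp2d9, for example, had 10.2, 8.06 and 33.8 FPKM in null and 10.8, 4.66 and 5.98 in hHKDC1 OE fat. The origin of this RNA in fat was not tested.

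Among the members over that limit, Cyp2e1 was again the highest, with 419.8, 471 and 740.3 FPKM in null fat, 8.17% of its liver level and 66.5% of all members' FPKM in null fat. Cyp4v3, a hydroxylase of fatty acids, had 19.9, 20.3 and 25.1 FPKM (13.3% of liver) and Cyp2d22 10.5, 14 and 19.2 (12.3%). The orphan P450 Cyp20a1 had 6.45 ± 1.36 FPKM in null liver and 9.07 ± 1.06 in null fat (log2 fold change 0.44 ± 0.19, adjusted p = 0.0761).

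The 4 members called higher in fat were Cyp1b1, Cyp4f16, Cyp4b1 and Cyp4f18. Cyp1b1, which oxidises oestradiol and is known from mesenchymal cells, had 0.152, 0.447 and 0.194 FPKM in null liver and 3.35, 3.73 and 4.7 in null fat, a log2 fold change of 3.84 ± 0.39 (adjusted p = 7.74e-05, edgeR). Cyp4b1 had 7.37, 9.54 and 7.21 in null liver and 28.1, 35.8 and 44.7 in null fat (2.12 ± 0.20, adjusted p = 5.85e-05), the second highest mean among the members in null fat. Cyp4f16 had 0.602, 0.468 and 0.962 FPKM in null liver and 3.39, 3.4 and 4.1 in null fat (2.36 ± 0.32, adjusted p = 0.000353). Cyp4f18, a hydroxylase of leukotrienes known from myeloid cells, had 0.0933, 0.143 and 0.626 in null liver and 1.21, 0.874 and 1.38 in null fat (1.92 ± 0.68, adjusted p = 0.0368), and its liver libraries held 2 to 14 counts. In each of the 4 the lowest fat library was above the highest liver library.

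**Figure D4:**
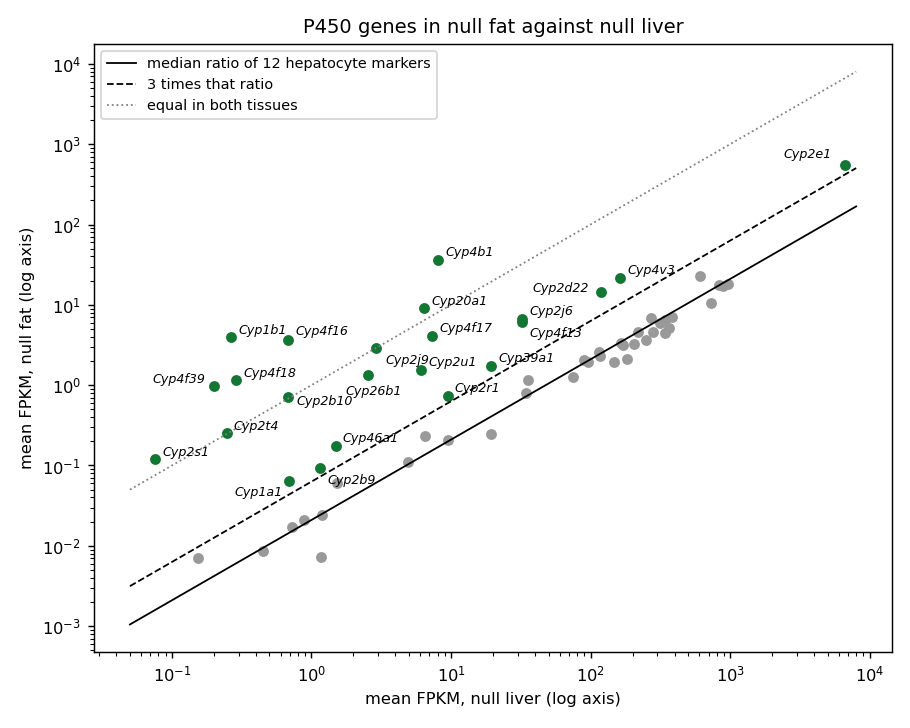
Mean FPKM in null fat (y axis, log) against null liver (x axis, log) for members with at least 60 counts over the 12 libraries and above 0 in both tissues (Cyp11a1 was at 0 in null liver and Cyp2g1 in null fat), with named green points for a ratio over 3 times the median of the hepatocyte markers. The grey points, among them most of the abundant liver genes, lie near the line of the markers' median of 2.10%, and Cyp1b1, Cyp4b1, Cyp4f16 and Cyp4f18 lie far above it.

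The comparison of hHKDC1 OE with null fat addressed a tissue at which the hepatocyte promoter was not aimed. Of the 92 members 48 were tested, and the highest FPKM of an untested member in a fat library was 0.479. With edgeR 0 members passed an adjusted p of 0.05 in either direction, and 0% of 16380 genes did (smallest adjusted p 0.133, which was also that of the members). DESeq2 called 2 members higher, Cyp4f18 (adjusted p = 2.67e-05) and Cyp11a1 (0.00929), and 4 lower, Cyp3a11 (0.00207), Cyp3a25 (0.0292), Cyp4a12b (0.0296) and Cyp2c50 (0.048), against 6.22% and 0.941% of all genes. At an unadjusted p under 0.05, edgeR had 2 members higher and 13 lower, where 11.3% and 6.39% of all genes were. By FPKM the groups did not overlap in 2 members above and 15 below, against 11.6% and 11.9% of all genes (by TMM-scaled counts 2 and 14, with Cyp2d26 and Cyp4f14 overlapping and Cyp2j6 apart). Fitted values were negative in 42 of 48 (53.9% of all genes), with a median of -0.83 (-0.05 over all genes). The count of 13 became 4 without replicate 3 of null, 5 without replicate 3 of hHKDC1 OE and 6 without replicate 2 of hHKDC1 OE.

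The negative values were split by the ratio to liver. The 28 tested members without a ratio over the limit were all negative, with a median of -1.27, and 11 of the 12 hepatocyte markers were negative with a median of -1.29. Of the 19 tested members over the limit 14 were negative and 5 positive, with a median of -0.25. The 8 skeletal muscle markers were all negative as well, with a median of -1.14. Null replicate 3 held the most hepatocyte and the least skeletal muscle marker RNA, and without it 35 of the 48 members were negative, 4 had an unadjusted p under 0.05 and the median was -0.46, while that of the hepatocyte markers was -0.60. Cyp3a11, for example, had 1.51, 1.56 and 6.66 FPKM in null and 0.898, 0.296 and 0.438 in hHKDC1 OE fat, where the third value is that library's (-2.48 ± 0.72, adjusted p = 0.165, edgeR). Cyp3a25 had 4.49, 4.47 and 11.9 against 3.43, 0.8995 and 1.5 (-1.75 ± 0.61), Cyp4a12b 1.11, 0.771 and 1.86 against 0.289, 0.123 and 0.501 (-1.96 ± 0.61), and the groups of these 3 did not overlap. Cyp2c38 (-1.93 ± 0.88), at under 1 FPKM, and Cyp4a12a (-1.65 ± 0.64) completed the 5 lowest values. Cyp2f2, among the P450 genes with most RNA in fat, had 20.7, 18.7 and 30.2 against 17.4, 10.8 and 12.8 FPKM without overlap (-0.69 ± 0.26). The part of hepatocyte and muscle RNA in these values was not tested.

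Among the members over the limit, Cyp4f18 differed most. It had 1.21, 0.874 and 1.38 FPKM in null and 9.03, 2.54 and 7.25 in hHKDC1 OE fat, from 50, 36 and 63 and 509, 128 and 314 counts. All 3 hHKDC1 OE values were above the null values, replicate 2 least so, and the log2 fold change was 2.52 ± 0.51 (adjusted p = 0.133, edgeR). The order of those libraries was that of the B cell markers (319, 19.4 and 212 FPKM in sum, against 1.12, 0.92 and 1.58 in null fat), all 12 of which were higher without overlap. All 10 T cell markers were too, at sums of 1.55, 1.72 and 3.64 in null and 167, 13.9 and 193 in hHKDC1 OE fat, the 11 macrophage and Kupffer cell markers summed to 160, 93.5 and 223 in null and 355, 269.7 and 332 in hHKDC1 OE fat with 9 fitted higher, and 7 neutrophil markers summed to 4.94, 3.31 and 3.78 in null and 23.5, 9.49 and 7.2 in hHKDC1 OE fat. The macrophage markers had that order too, whereas replicate 3 was the highest for the T cell and the lowest for the neutrophil markers. Their part in the value of Cyp4f18 was not tested. Cyp11a1, which cleaves the side chain of cholesterol in the first step of steroid synthesis, had 0, 1 and 2 counts in null and 22, 15 and 22 in hHKDC1 OE fat and 0 in every liver library, so that its fitted log2 fold change of 4.01 rests on few reads.

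Among the other members over the limit the differences were smaller. Cyp2e1 had 419.8, 471 and 740.3 FPKM in null and 280.2, 376 and 479 in hHKDC1 OE fat, with overlap (-0.46 ± 0.31, adjusted p = 0.456, edgeR). Cyp4b1 had 28.1, 35.8 and 44.7 against 25.1, 40.9 and 30.4, with overlap (-0.13 ± 0.22), and Cyp1b1 3.35, 3.73 and 4.7 against 4.2, 5.07 and 7.79 (0.59 ± 0.27, adjusted p = 0.299). Cyp4v3 was apart, at 19.9, 20.3 and 25.1 against 11, 16.3 and 14.3 (-0.60 ± 0.17, adjusted p = 0.161). So were Cyp2d22 (-0.63 ± 0.21), Cyp39a1 (-0.52 ± 0.30) and Cyp2j9 (-0.70 ± 0.25, at 3.17, 2.86 and 2.76 against 1.52, 2.33 and 1.41 FPKM). Of the other positive values, Cyp26b1 had 0.48 ± 0.32, Cyp4f16 0.31 ± 0.23 and Cyp2s1, at under 1 FPKM, 1.06 ± 0.77. The groups of these 3 overlapped.

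**Figure D5:**
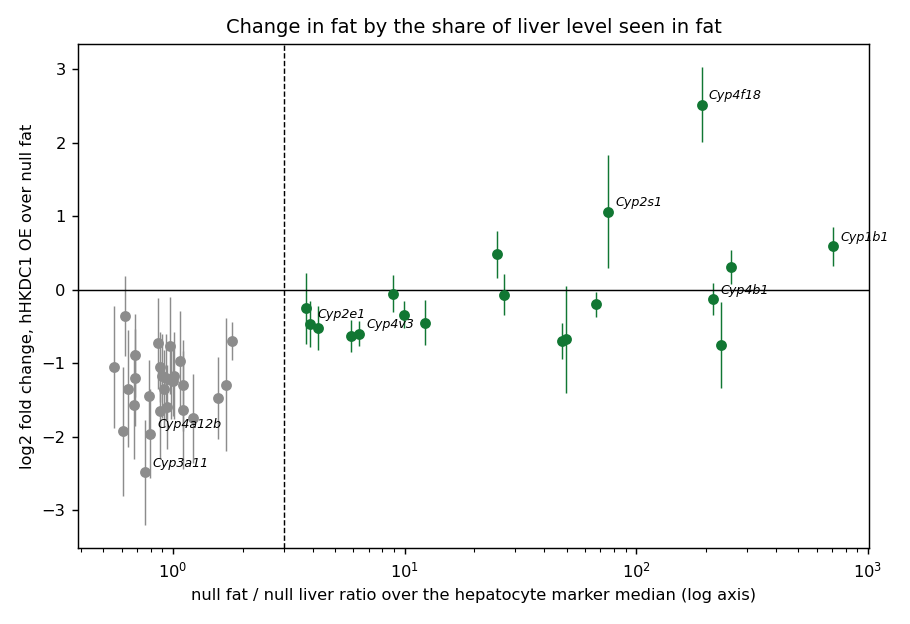
Log2 fold change of hHKDC1 OE over null fat (y axis, bars are the SE of the edgeR fit) against the null fat to null liver ratio of each tested member, divided by the median of the hepatocyte markers (x axis, log, with the limit of 3 dashed). The 28 members left of the limit are all negative, and Cyp4f18 is the highest point to its right (Cyp11a1, at 0 in liver, has no ratio and is not drawn).

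Among the 18 partners in fat 12 were negative and 6 positive, 2 were lower and 1 higher at an unadjusted p under 0.05 (6.39% and 11.3% of all genes), and 0 passed the adjusted threshold. Alas1 had 43.2, 38.5 and 49.3 FPKM in null and 18.4, 31.7 and 20.3 in hHKDC1 OE fat (-0.85 ± 0.22, adjusted p = 0.14, edgeR), and Fech, which inserts the iron of heme, 31.4, 33.6 and 29.2 against 21.1, 23.8 and 17.9 (-0.54 ± 0.15, adjusted p = 0.151), both without overlap. The heme-degrading Hmox1 had 13.6, 10.3 and 16.9 against 23.6, 18.1 and 17.8 on the other side (0.61 ± 0.22, no overlap), and Por 104, 117 and 113 against 86.2, 86.9 and 78.4 (-0.36 ± 0.17). The groups overlapped for the cytochrome b5 reductase Cyb5r3 (-0.46 ± 0.24), the ferredoxin reductase Fdxr (0.51 ± 0.32) and Pgrmc2 (0.13 ± 0.14). Of the 25 regulators 7 were positive and 18 negative. Nr1i2, with 0.599, 0.635 and 2.71 against 0.477, 0.245 and 0.285 FPKM (-1.88 ± 0.69), Hnf4a (-1.28 ± 0.58) and Foxa2 (-1.27 ± 0.91) are expressed by hepatocytes and were highest in null replicate 3. The other named regulators had -1.21 ± 0.63 (Nr1i3), 0.35 ± 0.31 (Ahr), 0.31 ± 0.42 (Bcl6) and -0.31 ± 0.30 (Ppara), with overlapping groups. The largest positive value was that of Ahrr (2.70 ± 1.12), which stayed under 1 FPKM.

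The difference of the vector's effect between the tissues was tested as an interaction over all 12 libraries. Of 61 members tested, 0 passed an adjusted p of 0.05 in edgeR, and 0% of 17070 genes did. DESeq2 called 0 members, against 2.35% of all genes higher and 0.527% lower. At an unadjusted p under 0.05 there were 3: Cyp2u1 (fat minus liver -1.11 ± 0.38, adjusted p = 0.247), Cyp4f18 (2.36 ± 0.95, adjusted p = 0.326) and Cyp2c68 (-1.24 ± 0.56, adjusted p = 0.386), 1 higher and 2 lower in fat, where 9% and 3.67% of all genes were. Of the 44 members tested in both tissues, 29 were negative in both, 12 positive in liver and negative in fat, 2 the reverse (Cyp26b1 and Cyp1b1), and Cyp4f16 was positive in both. Side by side, Cyp2e1 had log2 fold changes of -0.50 in liver and -0.46 in fat, Cyp3a11 -1.18 and -2.48, Cyp4a12b -1.05 and -1.96, Cyp2c54 -0.73 and -1.35, and Cyp2u1 0.74 and -0.45. Without replicate 3 of null fat, the fat values were -0.22 for Cyp2e1, -1.47 for Cyp3a11 and -0.37 for Cyp2c54.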

How the data were processed

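RNA from liver and subcutaneous fat of mice given a null or a human HKDC1 vector was sequenced, with 3 libraries per group. The authors sequenced libraries without strand and deposited raw read counts per gene together with FPKM values. The submitters' processing notes name STAR 2.5, HTSeq 0.6.1 and DESeq2. The methods name the human reference genome, whereas the deposited identifiers are mouse: all 92 members had the same symbol in GENCODE M21 (GRCm38) and 82 the same position. The FPKM deposited by the authors equalled counts over gene length and DESeq2 size factors of the 12 libraries within 1% in 100% of 252371 values above 0. Columns of fold changes and p-values of the authors' own comparisons were not used.

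Counts were tested with edgeR 4.0.16 in R 4.3.3 (quasi-likelihood, TMM, filterByExpr), for each tissue alone and as an interaction, with Benjamini-Hochberg adjustment over all genes tested and a threshold of 0.05. DESeq2 1.42.0, limma 3.58.1 on log2(FPKM + 1) and log2(FPKM + 0.1), other normalizations and filters, a replicate block and the leaving out of each library were alternatives. Scripts were tested on simulated data, in which DESeq2 made more false calls than edgeR in each comparison and most in fat. It also recovered more of the changed genes in each, with the widest gap in fat, so edgeR's lack of calls there is a weak result. The simulated counts used dispersions estimated by edgeR and so cannot rank the tools. DESeq2's calls are given as an alternative. Total counts of 15496019 to 19954971 per library set the precision, and the chi-square per gene between replicates was 21.8 to 173, so no library was a copy. Genes named were those passing the adjusted threshold, the 5 largest values of either sign in each tissue, the 10 with the highest mean FPKM in each tissue, those called higher in null fat, the members of the male-biased, female-biased and pericentral lists, and, of partners and regulators, the 3 largest of either sign with Por, Nr1i2, Nr1i3, Ahr, Ppara and Hnf4a. Other genes named were chosen after their values were seen. The members and lists were chosen with earlier results of these data known.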

Additional observations from a re-analysis of the deposited data

How the results depend on the processing

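In liver, where edgeR called 0 members at an adjusted p under 0.05, DESeq2 called 2 lower (Cyp4a12b and Cyp2c54), and edgeR without a filter on low counts called 1 higher (Cyp2u1) and 6 lower (Cyp3a11, Cyp4a12b, Cyp26b1, Cyp4a31, Cyp2c38 and Cyp2c54) of 72, where 0.726% and 0.593% of all genes were called. Leaving out 1 library at a time gave 0 to 3 lower, the 3 (Cyp3a11, Cyp2c54 and Cyp2c38) without replicate 2 of hHKDC1 OE (0.508% of all genes). The median log2 fold change of -0.17 ran from -0.28 without that library to -0.062 without replicate 1 of null or replicate 3 of hHKDC1 OE. In fat, DESeq2 called 2 members higher and 4 lower, edgeR without a filter 1 higher (Cyp4f18) and 1 lower (Cyp3a11), against 2.42% and 0.268% of all genes, and a fit over 12 libraries 1 higher (Cyp4f18) and 1 lower (Cyp4a12b), against 4.51% and 0.621%. Leaving out 1 library gave 0 to 2 higher and 0 to 2 lower, the non-zero counts without replicate 2 of hHKDC1 OE (11.4% and 7.53% of all genes), and medians of -1.18 to -0.46. Over the alternatives with all libraries, the members lower at an unadjusted p under 0.05 ran in liver from 2 (a fit over 12 libraries) to 13 (no filter), against 7, and in fat from 6 (library size alone) to 22 (no filter, or a fit over 12 libraries), against 13. An alternative chosen after seeing the data kept as hHKDC1 OE only the library of each tissue not described as a knockout, assumed to vary like the null libraries: 1 member was lower in liver (Cyp3a11, 0.182% of all genes) and 1 higher in fat (Cyp4f18, 4.34%). Of the members named by the rule, 17 of 37 in liver and 4 of 34 in fat changed sign under at least 1 of the other alternatives, and no value of changed sign passed the adjusted threshold. The cause of these differences was not tested. The interaction gave 0 member calls under every alternative, where up to 3.92% of all genes were higher and 2.86% lower (without replicate 2 of hHKDC1 OE fat). Between the null tissues 3 to 6 members were higher and 35 to 50 lower in fat, where 20.5% (no filter) to 59.1% (library size alone) and 15% to 32% of all genes were.

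The deviations of libraries with the same replicate number correlated at 0.088 to 0.22 between the vectors in liver, where every library correlated best with its own number, a hint from the data and not from the design, at -0.12 to 0.03 in fat, and at 0.028 to 0.24 between null liver and null fat. Not every pair passed 0.1 in any of these, so the numbers were not taken as pairs. The labels do not say whether liver and fat of 1 number came from 1 mouse, and the fits across tissues took them as separate. With the replicate as a block, 0 members were called in liver and 0 in fat (0.0974% of all genes higher and 0.03% lower in liver, 0.971% and 0.0549% in fat), and 12 and 15 members were lower at an unadjusted p under 0.05. With 3 libraries per group, differences of the size seen here were mostly not separable from the spread between replicates, and members with few reads were least so.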
